A study of Homo sapiens with 8 samples.

Results

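The interstitial matrix glycoproteins analysed here are 10 genes whose products fill the space between cells or build it up: TGFBI, THBS1, TNC and POSTN among the matricellular proteins, the adhesive glycoprotein gene FN1, HAS2 and VCAN of the hyaluronan-rich matrix, and ELN, FBN1 and FBN2 of the elastic fibre. They were taken by gene symbol from the 30017 symbols of the deposited expression tables, with the records of a symbol summed. The rule itself uses no measured value, but these genes and the related lists below were chosen with earlier results of these data known. Their counts are therefore set beside the shares of all genes as a description only. The cells were A549-S3KO cells, a line made from the human lung adenocarcinoma line A549 by knocking out SMAD3, the gene of a transcription factor that carries TGF-β signals to the nucleus. A lentivirus gave them back either Smad3(RA/KP), a mutant changed at neighbouring residues of its DNA-binding MH1 domain, or wild-type Smad3. The comparisons address whether this mutant changes how transcripts respond to TGF-β.

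There were 4 groups of 2 libraries. The first was Smad3(RA/KP) cells exposed for 8 h to TGF-β at 1 ng/ml, the second unstimulated Smad3(RA/KP) cells, the third wild-type Smad3 cells stimulated in the same manner, and the last unstimulated wild-type Smad3 cells. Cells of all groups carried the SMAD3 knockout and a lentiviral Smad3, and were seeded on collagen-coated plates at the start of the stimulation. Infected cells had been cloned by limiting dilution, and the clone chosen for wild-type Smad3 was the one with the lowest Smad3 level. The sources used here do not name the sequenced clones, so the mutation and the clone cannot be told apart.

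Fibronectin is assembled by cells through integrins into fibrils that organise other matrix proteins. Matricellular proteins bind to that scaffold and to cell receptors and tune adhesion rather than bearing load. Fibrillin microfibrils guide the deposition of elastin and hold latent TGF-β, while hyaluronan, made at the cell surface by HAS enzymes, is bound by versican into a hydrated gel. TGF-β is known as a strong inducer of matrix genes in epithelial and mesenchymal cells, and Smad3 is the main DNA-binding Smad of that response.

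Mapped bases were 1.15 to 1.81 Gb per library. SMAD3 was present at 137 to 187 TPM (the share of a transcript among all transcripts of a library, scaled for length and depth) in the 8 libraries, which counts the lentiviral cDNA and the edited gene together. The epithelial keratins KRT7, KRT8 and KRT18 were at 2533 to 6862 TPM, CDH1 at 1.59 to 10.3 TPM and EPCAM at 1.40 to 3.95 TPM. KRT19 was at 0 in every library. The lung markers of the same list were low or absent, with NAPSA at 0.998 to 3.37 TPM, NKX2-1 at 0 to 0.0857 TPM, and SFTPB and SFTPC at 0. Of other cell types, the endothelial list summed to 0.210 TPM at most, PTPRC and DCN were at 0, and a 9-gene fibroblast list summed to 18.1 to 29.7 TPM, mostly TWIST2 at 15.9 to 24.1 TPM. LUM of that list was at 0.330 to 5.19 TPM and THY1 at 0.221 to 1.19 TPM. A leukocyte list summed to 65.0 to 110 TPM, mostly CD68 at 51.0 to 104 TPM, with CD3E at 0. Its other genes CD14, at 4.10 to 13.5 TPM, and ITGAM, at 1.54 to 3.38 TPM, were above 0 in all 8 libraries. A pair of libraries stood apart. The 2 unstimulated Smad3(RA/KP) libraries differed from each other along the GC content of genes (Spearman rho −0.58 across 12426 genes, against 0.10 to 0.22 in the other groups). This correlation describes their difference and does not tell which of the 2 is unusual. Several values of that line, though not all, are also given without the second of them. That choice does not mark the second as the unusual one.

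TGFBI was by far the most abundant of the 10 transcripts. It supplied 90.8 to 96.8% of their summed TPM in each library and ranked 93 among all symbols by mean TPM. THBS1 came next in all 8 libraries, followed in all 8 by FN1 and then HAS2, which exceeded FBN1 in all 8. FBN1, ELN, TNC and FBN2 lay near 1 TPM and were not separated: FBN1 exceeded ELN in 3 of 8 libraries, ELN exceeded TNC in 4 and TNC exceeded FBN2 in 4. VCAN was above 0 in 5 libraries and POSTN in none. The mean TPM reached 1, the level required for testing, in 6 of the 10 genes, while TNC, FBN2, VCAN and POSTN stayed below it.

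**Figure D1:**
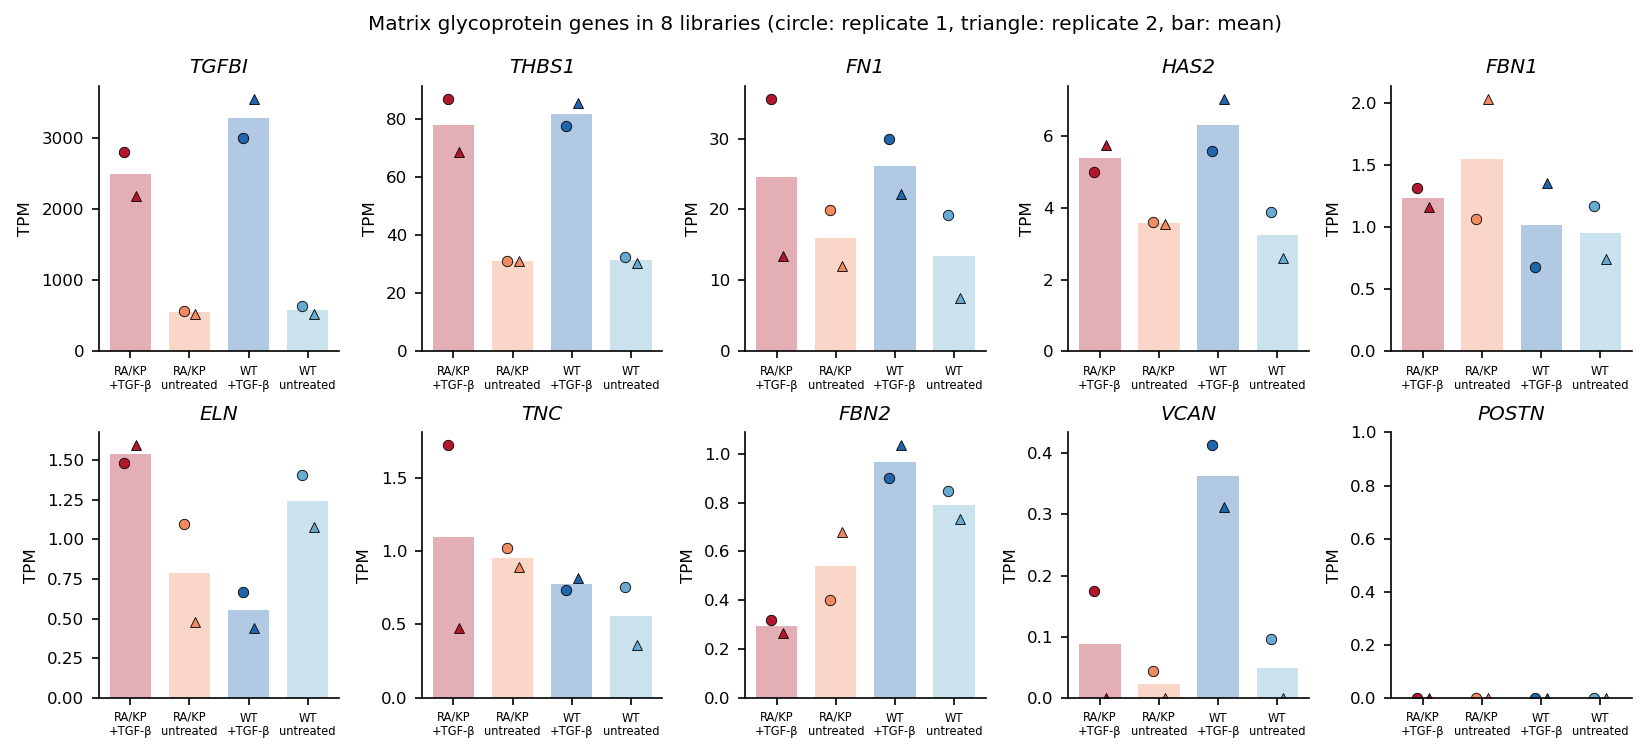
TPM of the 10 genes in the 8 libraries, 1 panel per gene with its own linear axis from 0. Circles are replicate 1, triangles replicate 2 and bars the group means (n = 2). TGFBI and THBS1 stood well above the unstimulated cells after TGF-β in both lines, FN1 was higher in replicate 1 of each group, and POSTN was listed at 0 throughout.

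TGFBI and THBS1 were the members that rose past the test with TGF-β, and they did so in Smad3(RA/KP) cells (2 of 6 tested, where 3.49% of all genes tested rose) as well as in wild-type Smad3 cells (2 of 6, where 2.94% rose). TGFBI encodes a secreted protein named for its induction by TGF-β that binds collagens and integrins, and THBS1 encodes thrombospondin-1, a large adhesive protein able to activate latent TGF-β. The deposited tables place TGFBI at chr5:136028895-136063818 on the plus strand and THBS1 at chr15:39581079-39597467 on the plus strand (GRCh38). The bases next to these genes are printed because both transcripts rose together and so that they can be compared. Each run starts 250 bases before the RefSeq transcription start (GRCh38.p14, plus strand) and ends at the base before the gene as the deposited tables give it, which is chr5:136028738-136028894 for TGFBI and chr15:39580829-39581078 for THBS1. Capitals mark CAGAC, the core of the Smad element, and GGAATG, an element bound by TEAD factors.
TGFBI: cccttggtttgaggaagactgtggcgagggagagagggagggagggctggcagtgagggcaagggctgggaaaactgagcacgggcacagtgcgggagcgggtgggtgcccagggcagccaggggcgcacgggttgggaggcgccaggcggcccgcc
THBS1: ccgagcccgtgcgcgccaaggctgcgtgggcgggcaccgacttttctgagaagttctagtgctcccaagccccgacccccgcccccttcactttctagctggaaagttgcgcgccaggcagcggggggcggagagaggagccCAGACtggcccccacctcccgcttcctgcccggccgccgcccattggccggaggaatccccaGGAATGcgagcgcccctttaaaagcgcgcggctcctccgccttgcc

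Both of these elements, and that of AP-1, were searched on both strands of the 250 bases before each RefSeq start, in the 8 members that the promoter table holds. CAGAC was found in 3 of them, 108 bases before the start of THBS1, 77 bases before that of POSTN and 70 bases before that of TNC. Among all 35116 promoters of the table, 38.0% held it. GGAATG was found 46 bases before the start of THBS1 and 58 bases before that of FBN1, against 11.9% of all promoters. The pattern TGANTCA, used here for the AP-1 element with any base accepted at N, was found once, 220 bases before the start of POSTN. It was found in 6.57% of all promoters. TGFBI, FN1, VCAN and FBN2 held none of these letters in this window.

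TGFBI had 2795 and 2186 TPM in stimulated Smad3(RA/KP) cells, against 573 and 526 TPM in unstimulated Smad3(RA/KP) cells. Wild-type Smad3 cells had 3002 and 3548 TPM when stimulated, against 644 and 528 TPM unstimulated. All 4 stimulated libraries lay far above all 4 unstimulated ones. In bulk RNA such as this, a change in the share of cells and a change in RNA per cell cannot be told apart. Fold changes here are on the log2(TPM + 1) scale and were tested with limma across 13141 genes, with Benjamini-Hochberg adjustment at 0.05. The log2 fold change of TGFBI was 2.17 ± 0.18 (SE, limma adjusted p = 0.00044) in Smad3(RA/KP) cells and 2.48 ± 0.18 (limma adjusted p = 0.000207) in wild-type Smad3 cells. By p it ranked 27 and 17 among all genes tested in these comparisons. Both calls held in each of the 20 alternative settings. Of these, 1 (only the highest record of a symbol) could not change the members, which have 1 record each. Without the second unstimulated Smad3(RA/KP) library, the response in that line was 2.17. Over the libraries left out it ranged from 2.02 to 2.32.

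THBS1 had 86.9 and 68.6 TPM in stimulated Smad3(RA/KP) cells, against 31.2 and 31.2 TPM in the unstimulated ones. It had 77.6 and 85.3 TPM in stimulated wild-type Smad3 cells, against 32.6 and 30.3 TPM in the unstimulated ones. The unstimulated levels of the lines overlapped, and so did the stimulated ones. THBS1 changed by 1.28 ± 0.17 (SE, limma adjusted p = 0.00459) in Smad3(RA/KP) cells and 1.35 ± 0.17 (limma adjusted p = 0.00322) in wild-type Smad3 cells. These calls rested on single libraries in part. Without the first stimulated Smad3(RA/KP) library the response of that line was 1.11 (limma adjusted p = 0.0538), and without the second stimulated wild-type Smad3 library it was 1.20 in wild-type Smad3 cells (limma adjusted p = 0.0772). Without the second unstimulated Smad3(RA/KP) library it was 1.33 in Smad3(RA/KP) cells, within a range of 1.11 to 1.46 over the libraries left out. FSIP1 overlaps THBS1 by 3297 bases on the other strand and had 0 to 0.539 TPM.

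The remaining matricellular members had low levels. TNC, which encodes tenascin-C, an anti-adhesive hexamer of injured and tumour stroma, had 1.72 and 0.475 TPM in stimulated Smad3(RA/KP) cells and 1.02 and 0.888 TPM in unstimulated ones. Stimulated wild-type Smad3 cells had 0.733 and 0.818 TPM and unstimulated ones 0.755 and 0.360 TPM. The stimulated and unstimulated libraries overlapped in both lines, and replicates of the stimulated Smad3(RA/KP) group differed 3.62-fold. POSTN encodes periostin, a relative of TGFBI with the same FAS1 repeats, and was listed at 0 in all 8 libraries. The same libraries listed 25 genes used by every cell above 0, the lowest value being 13.3 TPM for TBP. Genes this abundant do not show how a transcript near 0 would be listed. The tables give no read counts, so no upper limit follows from these zeros.

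FN1 (chr2:215360454-215436167, minus strand) did not pass the test in either line. Its level was 35.6 and 13.4 TPM in stimulated Smad3(RA/KP) cells, against 20.0 and 12.0 TPM in unstimulated ones, so the groups overlapped. Stimulated wild-type Smad3 cells had 30.0 and 22.2 TPM, against 19.2 and 7.58 TPM in unstimulated ones, and those groups did not overlap. Replicate 1 exceeded replicate 2 in each of the 4 groups, by 1.35-fold to 2.65-fold. On the log2 scale FN1 differed by 0.48 ± 0.25 (SE, limma adjusted p = 0.303) in Smad3(RA/KP) cells and 1.03 ± 0.25 (limma adjusted p = 0.0576) in wild-type Smad3 cells. The value in wild-type Smad3 cells lay close to the threshold. It passed in 4 of the 20 alternatives, with limma adjusted p of 0.0183 to 0.0369, and was 0.470 when the replicate number was left out of the fit. None of these 4 left out a library. Over the libraries left out, the log2 fold change of FN1 in wild-type Smad3 cells ranged from 0.69 to 1.36.

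HAS2, which encodes a synthase that extrudes hyaluronan through the plasma membrane, was low in all libraries and passed the test in neither line. Stimulated Smad3(RA/KP) cells had 5.00 and 5.77 TPM, against 3.60 and 3.54 TPM in unstimulated ones. Stimulated wild-type Smad3 cells had 5.60 and 7.05 TPM, against 3.89 and 2.61 TPM in unstimulated ones. The stimulated libraries lay above the unstimulated ones in both lines. On the log2 scale HAS2 differed by 0.48 ± 0.26 (SE, limma adjusted p = 0.312) in Smad3(RA/KP) cells and 0.79 ± 0.26 (limma adjusted p = 0.145) in wild-type Smad3 cells. HAS2-AS1, a transcript of the opposite strand that shares 2045 bases with HAS2, had 1.90 and 1.90 TPM in stimulated and 1.64 and 1.37 TPM in unstimulated Smad3(RA/KP) cells. It had 1.35 and 1.49 TPM in stimulated and 1.05 and 1.09 TPM in unstimulated wild-type Smad3 cells. The sources used here do not say if strand was used in counting, so reads of the shared stretch cannot be assigned with certainty.

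VCAN, the gene of the hyaluronan-binding proteoglycan versican, had 0.175 and 0 TPM in stimulated Smad3(RA/KP) cells and 0.0446 and 0 TPM in unstimulated ones. It had 0.413 and 0.312 TPM in stimulated wild-type Smad3 cells, against 0.0962 and 0 TPM in unstimulated ones. Its 2 highest values were thus the stimulated wild-type Smad3 libraries, at levels too low to enter the test. With no filter on low values the response was 0.085 in Smad3(RA/KP) cells (limma adjusted p = 0.614) and 0.38 in wild-type Smad3 cells (limma adjusted p = 0.1199).

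Of the elastic fibre genes, ELN passed no test but had responses of opposite sign in the lines. ELN encodes tropoelastin, the soluble precursor of elastin. It had 1.48 and 1.60 TPM in stimulated Smad3(RA/KP) cells, against 1.10 and 0.480 TPM in unstimulated ones. Stimulated wild-type Smad3 cells had 0.670 and 0.439 TPM, against 1.41 and 1.08 TPM in unstimulated ones. No pair of groups overlapped in either line, the stimulated libraries being higher in Smad3(RA/KP) cells and lower in wild-type Smad3 cells. The log2 fold change was 0.53 ± 0.29 (SE, limma adjusted p = 0.323) in Smad3(RA/KP) cells and −0.53 ± 0.29 (limma adjusted p = 0.444) in wild-type Smad3 cells. Without the second unstimulated Smad3(RA/KP) library it was 0.34 in Smad3(RA/KP) cells, within a range of 0.34 to 0.72 over the libraries left out. The mean base coverage of ELN was only 0.382 to 1.33 per library, and its replicates differed by up to 2.29-fold within a group.

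FBN1, the gene of fibrillin-1 of the adult microfibril, did not separate any groups. It had 1.31 and 1.16 TPM in stimulated and 1.07 and 2.03 TPM in unstimulated Smad3(RA/KP) cells, and 0.676 and 1.35 TPM in stimulated and 1.17 and 0.743 TPM in unstimulated wild-type Smad3 cells. Its log2 fold change was −0.16 ± 0.33 (SE, limma adjusted p = 0.794) in Smad3(RA/KP) cells and 0.030 ± 0.33 (limma adjusted p = 0.985) in wild-type Smad3 cells. The sign of both values depended on the library left out. FBN2, the gene of fibrillin-2 of the developing microfibril, lay below the test's level. It had 0.321 and 0.267 TPM in stimulated and 0.399 and 0.679 TPM in unstimulated Smad3(RA/KP) cells. Stimulated wild-type Smad3 cells had 0.900 and 1.04 TPM and unstimulated ones 0.849 and 0.732 TPM. All 4 Smad3(RA/KP) values were thus below all 4 wild-type Smad3 values, but the share of all genes separated in this way was not computed. With no filter the stimulated lines differed by −0.60 (limma adjusted p = 0.722) and the unstimulated ones by −0.22 (limma adjusted p = 1).

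Counted together, 2 of the 6 members tested rose in Smad3(RA/KP) cells, where 3.49% of all genes tested rose, and none fell, where 1.50% did (4.98% passed in either direction). In wild-type Smad3 cells 2 of 6 rose, against 2.94% of all genes, and none fell, against 1.74% (4.68% in either direction). At an unadjusted limma p under 0.05 there were 2 of 6 in Smad3(RA/KP) cells, against 21.9% of all genes, and 4 of 6 in wild-type Smad3 cells, against 16.5% of all genes, with FN1 and HAS2 added there. The median log2 fold change of the 6 was 0.50 in Smad3(RA/KP) cells (−0.10 over all genes tested) and 0.91 in wild-type Smad3 cells (−0.062 over all). With n = 2, groups often failed to overlap. In Smad3(RA/KP) cells 4 of the 6 were higher in both stimulated libraries than in either unstimulated one, as were 19.0% of all genes, and none was lower in both, as were 25.4%. In wild-type Smad3 cells 4 of the 6 were higher, against 17.8% of all genes, and 1, ELN, was lower, against 27.9%. Of the 4 genes below the level for testing, FBN2 was lower in both stimulated Smad3(RA/KP) libraries, FBN2 and VCAN were higher in both stimulated wild-type Smad3 libraries, and TNC and POSTN overlapped in both lines. For these 4 genes the shares above are no measure, since they cover tested genes only.

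No member differed between the lines past the test. For the difference of the responses, Smad3(RA/KP) minus wild-type Smad3, 0 of 6 passed limma's test, against 0.0228% of all genes. At an unadjusted limma p under 0.05 there was 1 of 6, against 4.29% of all genes. This was ELN, with a difference of 1.06 ± 0.42 (SE, limma adjusted p = 0.881), or 0.87 without the second unstimulated Smad3(RA/KP) library. Over the libraries left out, the difference of ELN ranged from 0.87 to 1.25. The difference was −0.31 for TGFBI (95% interval −0.90 to 0.27), −0.064 for THBS1 (−0.62 to 0.50), −0.55 for FN1 (−1.36 to 0.26) and −0.31 for HAS2 (−1.15 to 0.52). All 4 intervals include 0, and they leave room for a weaker as well as a stronger response in Smad3(RA/KP) cells.

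Comparing the lines within a treatment gave 0 of 6 past the test with TGF-β, against 0.00761% of all genes, and 0 of 6 without it, against 0.0152%. With TGF-β, TGFBI was lower in both Smad3(RA/KP) libraries than in either wild-type Smad3 library, at means of 2490 ± 431 and 3275 ± 386 TPM (SD, n = 2 each). Its log2 difference was −0.40 ± 0.18 (SE, limma adjusted p = 0.671), −0.65 without the first and −0.15 without the second stimulated wild-type Smad3 library, and −0.25 without the second stimulated Smad3(RA/KP) library. ELN was higher in both stimulated Smad3(RA/KP) libraries, by 0.71 ± 0.29 (SE, limma adjusted p = 0.665). It was the only one of the 6 at an unadjusted p under 0.05 here, against 7.40% of all genes, and without TGF-β there was none, against 2.50%. These were the members tested that did not overlap with TGF-β, 1 higher and 1 lower, against 18.8% and 18.7% of all genes. Without TGF-β the lines overlapped for all 6, whereas 10.1% of all genes were higher and 8.78% lower in both Smad3(RA/KP) libraries. Of the genes below the level for testing, FBN2 was lower in both Smad3(RA/KP) libraries in either state, VCAN was lower with TGF-β and TNC higher without it. The shares of all genes given above do not cover genes at these levels.

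TGFBI and THBS1 followed each other over the 8 libraries with a Pearson r of 0.99. Outside the 10 members, the genes whose levels followed TGFBI most closely were PCDH1, C8orf4 and CNN1, each also at 0.99. Outside the members, for THBS1 they were MYO10, SMAD7 and C8orf4, also at 0.99. The correlations are on log2(TPM + 1) and describe 8 libraries in which stimulated and unstimulated cells formed separate clusters. CNN1 belongs to a list of 5 smooth muscle and pericyte markers that summed to 2.91 to 3.89 TPM in stimulated and 0.102 to 0.127 TPM in unstimulated Smad3(RA/KP) cells. CNN1 itself had 0 to 3.62 TPM and was above 0 in 4 libraries. No other gene of the list exceeded the 0.900 TPM of RGS5 in any library, and DES was at 0, so the sums mostly follow CNN1. In wild-type Smad3 cells the list summed to 4.12 to 4.46 TPM with TGF-β and 0.563 to 0.760 TPM without, and its part in the changes of the matrix genes was not tested.

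Genes related to the 10 members were listed by family. Among other matricellular genes, 8 of 22 listed were tested. CTGF (CCN2), a secreted TGF-β target that binds integrins, rose in both lines. It had 62.3 and 57.5 TPM in stimulated Smad3(RA/KP) cells, against 8.52 and 12.8 TPM in unstimulated ones (log2 fold change 2.41, limma adjusted p = 0.000461). It had 80.004 and 81.481 TPM in stimulated wild-type Smad3 cells, against 14.332 and 13.316 TPM in unstimulated ones (2.46, limma adjusted p = 0.000386). Its relative CYR61 (CCN1) rose as well, by 1.08 in Smad3(RA/KP) cells (limma adjusted p = 0.00794) and by 1.26 in wild-type Smad3 cells (limma adjusted p = 0.00356). Both calls of CYR61 were lost without the replicate number in the fit (limma adjusted p = 0.271 in Smad3(RA/KP) cells and 0.239 in wild-type Smad3 cells), and without single stimulated libraries of the line (0.0546 to 0.0818 in Smad3(RA/KP) cells, 0.0583 to 0.0796 in wild-type Smad3 cells) or the second unstimulated wild-type Smad3 library (0.0646). SPP1, which encodes osteopontin, fell by 0.94 in Smad3(RA/KP) cells (limma adjusted p = 0.0198), a call lost in 8 of 20 alternatives, among them the removal of the second stimulated (limma adjusted p = 0.185) or the second unstimulated library of that line (limma adjusted p = 0.0983). MFGE8, a secreted integrin ligand, rose by 0.78 in wild-type Smad3 cells (limma adjusted p = 0.0338), a call lost in 9 of 20, with an adjusted p of up to 0.351 when any of the 4 wild-type Smad3 libraries was left out. The counts were thus 2 higher and 1 lower of 8 in Smad3(RA/KP) cells, where 3.49% of all genes were higher and 1.50% lower, and 3 higher of 8 in wild-type Smad3 cells, where 2.94% were.

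In the hyaluronan and lectican list, 2 of 11 genes tested rose in each line and none fell (over all genes, 3.49% rose and 1.50% fell in Smad3(RA/KP) cells, and 2.94% rose and 1.74% fell in wild-type Smad3 cells). They were TNFAIP6, which encodes TSG-6, a protein that crosslinks hyaluronan, and HAPLN3, a link protein that ties hyaluronan to proteoglycans. TNFAIP6 had 44.2 and 23.0 TPM in stimulated Smad3(RA/KP) cells, against 8.52 and 4.28 TPM in unstimulated ones. It had 50.8 and 33.7 TPM in stimulated wild-type Smad3 cells, against 6.43 and 2.94 TPM in unstimulated ones. The log2 fold change was 2.22 (limma adjusted p = 0.000494) in Smad3(RA/KP) cells and 2.97 (limma adjusted p = 0.000128) in wild-type Smad3 cells, and both calls held in 20 of 20 alternatives. HAPLN3 rose by 1.94 in Smad3(RA/KP) cells (limma adjusted p = 0.000852) and by 2.07 in wild-type Smad3 cells (limma adjusted p = 0.00064). Its calls were lost when the replicate number was left out of the fit (limma adjusted p = 0.0832 in Smad3(RA/KP) cells and 0.0644 in wild-type Smad3 cells).

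Receptors of these proteins were tested in 12 of 17 cases, with 3 rising in Smad3(RA/KP) cells, 4 in wild-type Smad3 cells and none falling, where 3.49% of all genes rose and 1.50% fell in Smad3(RA/KP) cells, and 2.94% rose and 1.74% fell in wild-type Smad3 cells. ITGA5, the α subunit of the main fibronectin receptor, had 87.7 and 124 TPM in stimulated Smad3(RA/KP) cells, against 23.9 and 34.5 TPM in unstimulated ones. It had 72.9 and 140 TPM in stimulated wild-type Smad3 cells, against 21.5 and 33.1 TPM in unstimulated ones. The log2 fold change was 1.83 (limma adjusted p = 0.000827) in Smad3(RA/KP) cells and 1.88 (limma adjusted p = 0.000663) in wild-type Smad3 cells, and held in 20 of 20 alternatives. ITGB3, the β subunit of a vitronectin receptor, rose by 1.55 in Smad3(RA/KP) cells (limma adjusted p = 0.0136) and 1.67 in wild-type Smad3 cells (limma adjusted p = 0.00916). Its calls were lost in 5 of 19 alternatives in each line, with an adjusted p of up to 0.128 in Smad3(RA/KP) and 0.166 in wild-type Smad3 cells when either stimulated or the second unstimulated library of the line was left out. SDC1, a heparan sulfate proteoglycan of the cell surface, rose by 1.33 in Smad3(RA/KP) cells (limma adjusted p = 0.0156). This call was lost in 5 of 20 alternatives, among them without either stimulated library or the second unstimulated one of that line. The value without the latter was 0.91, within a range of 0.91 to 1.75 over the libraries left out. In wild-type Smad3 cells SDC1 had 226 and 375 TPM with TGF-β and 136 and 159 TPM without (0.98, limma adjusted p = 0.0567) and passed in 5 of 20 alternatives. ITGAV, which pairs with several β subunits, rose by 1.42 in wild-type Smad3 cells (limma adjusted p = 0.00555), where it had 57.0 and 78.1 TPM with TGF-β and 19.8 and 29.6 TPM without. The call was lost without either stimulated or the first unstimulated wild-type Smad3 library (limma adjusted p = 0.0571 to 0.104). In Smad3(RA/KP) cells ITGAV had 41.6 and 42.6 TPM with TGF-β and 19.8 and 35.1 TPM without (0.65, limma adjusted p = 0.114). Here it was 0.87 without the second unstimulated library of that line and ranged from 0.37 to 0.94 over the libraries left out. It passed in 2 of 20 alternatives (limma adjusted p = 0.00807 and 0.0488). SDC4, another proteoglycan of the cell surface, rose by 0.97 in wild-type Smad3 cells (limma adjusted p = 0.0182), a call lost in 7 of 20 alternatives, among them without any of the 4 libraries of that line (limma adjusted p = 0.0936 to 0.242). In Smad3(RA/KP) cells SDC4 had 91.6 and 84.2 TPM with TGF-β and 48.1 and 63.9 TPM without (0.65, limma adjusted p = 0.0827) and passed in 2 of 20 alternatives.

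**Figure D2:**
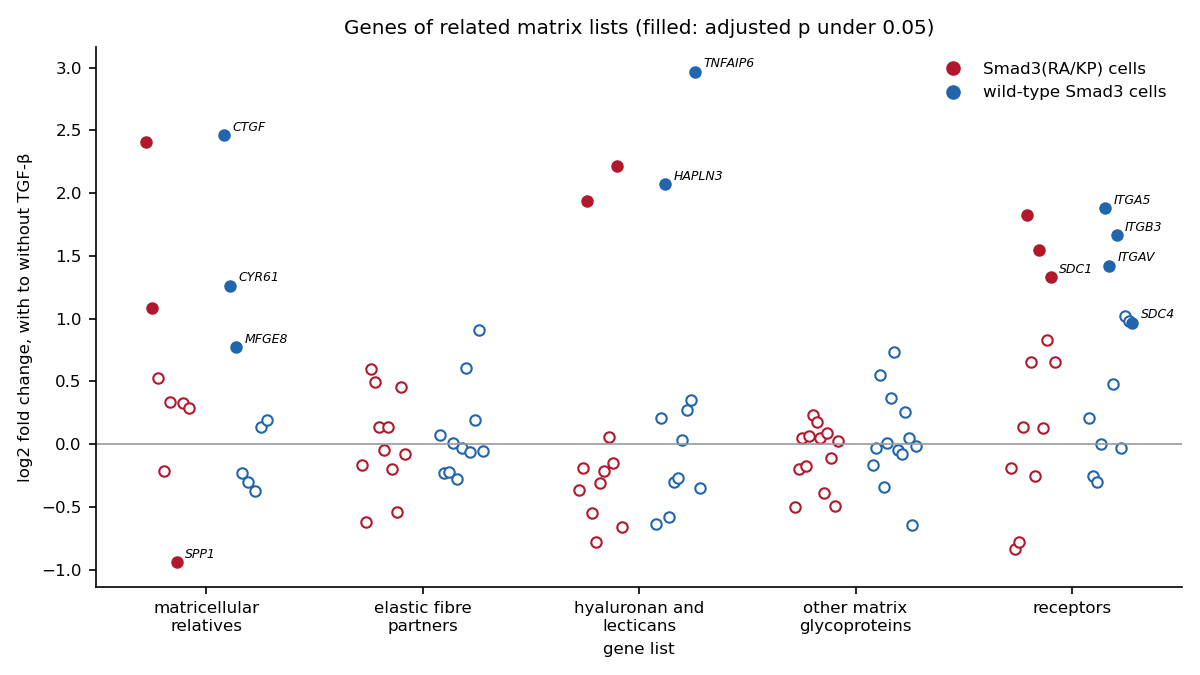
Log2 fold change with to without TGF-β of the tested genes of 5 related lists, in Smad3(RA/KP) cells (red, left of each pair) and wild-type Smad3 cells (blue, right). Each point is 1 gene, filled where the limma adjusted p was under 0.05. Genes past the threshold are named beside the wild-type Smad3 point, and SPP1 and SDC1 beside the Smad3(RA/KP) point. No gene of the elastic fibre partners or other matrix glycoproteins passed.

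Neither the partners of elastic fibres nor the other matrix glycoproteins held a gene past limma's test. Of 11 elastic fibre partners tested, 0 had an unadjusted p under 0.05 in Smad3(RA/KP) cells, against 21.9% of all genes, and 2 in wild-type Smad3 cells, against 16.5%. The smallest p belonged to EFEMP1, which encodes fibulin-3, in Smad3(RA/KP) cells (−0.62, limma adjusted p = 0.241) and to MFAP3L in wild-type Smad3 cells (0.91, limma adjusted p = 0.0964). EFEMP1 had 20.9 and 17.1 TPM in stimulated Smad3(RA/KP) cells, against 21.6 and 40.7 TPM in unstimulated ones. Its value was −0.095 without the second unstimulated library of that line and −1.15 without the first. MFAP3L passed in 2 of 19 alternatives (limma adjusted p = 0.0275 and 0.0461). Of 13 other glycoproteins, 1 had an unadjusted p under 0.05 in Smad3(RA/KP) cells and 3 in wild-type Smad3 cells, beside the same shares of all genes. The smallest belonged to VTN, the gene of vitronectin, in Smad3(RA/KP) cells (−0.49, limma adjusted p = 0.228) and to MATN3, the gene of matrilin-3, in wild-type Smad3 cells (0.73, limma adjusted p = 0.0893). MATN3 passed there in 3 of 20 alternatives, among them the removal of either unstimulated Smad3(RA/KP) library (limma adjusted p = 0.0469 to 0.0492). For the difference between the lines, 0 genes passed in any of the 5 lists, with an unadjusted p under 0.05 in 1 hyaluronan and lectican gene and 1 receptor gene, against 4.29% of all genes.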

How the data were processed

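RNA of 8 libraries (4 groups, n = 2) was sequenced. The study describes its replicates as independent experiments. HISAT2 2.1.0 with GRCh38 was the authors' aligner and StringTie 2.0.4 their quantifier without assembly of new transcripts; versions are from the submitters' processing notes, and no source used here names the annotation release. The deposited tables hold 33122 records with TPM (scaled to a fixed total per library), FPKM and mean base coverage, a signal from which the mapped bases were recovered as the mode of coverage divided by FPKM among records reaching an FPKM of 10. FPKM served as an alternative. The authors deposited no counts in these tables, so no counting intervals are given.

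TPM of records with 1 symbol were summed, and the 13141 symbols with a mean of at least 1 TPM were tested on the log2(TPM + 1) scale in limma 3.58.1 (R 4.3.3). Groups, the replicate number as a block and a variance trend entered the fit, with Benjamini-Hochberg adjustment at 0.05 (3 residual and 5.90 prior degrees of freedom). Deviations of same-numbered libraries correlated at 0.0484 to 0.332, lowest between stimulated and unstimulated Smad3(RA/KP) cells; that they share an experiment is an assumption. The members and lists were chosen with earlier results of these data known. Named genes were all members, up to 3 related genes past the threshold per list and direction (SDC4, named outside this rule, was chosen after its values were seen), or the smallest p where none passed, overlapping genes, and the 3 genes most correlated with each member that passed. Related genes were looked up under the symbols the tables use. Promoters are from the RefSeq table (GRCh38.p14), which holds 8 of the 10 members; ELN and HAS2 were not searched. GC content was known for 94.6% of the genes tested. Alternatives were other pseudocounts, filters, FPKM, median-ratio and quantile scaling, no block, only the groups compared, no variance trend, removal of the GC trend and leaving out each library.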

Additional observations from a re-analysis of the deposited data

Results flagged for a closer look

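ELN had log2 ratios with to without TGF-β (no pseudocount) of 0.44 and 1.73 in the replicates of Smad3(RA/KP) cells, and of −1.07 and −1.29 in those of wild-type Smad3 cells. The replicates of a line thus had the same sign, and the lines lay on opposite sides of 0. The difference of these responses was 1.06 on the log2(TPM + 1) scale (limma adjusted p = 0.881). FBN2 had log2 ratios of −0.31 and −1.35 in Smad3(RA/KP) cells and of 0.085 and 0.50 in wild-type Smad3 cells. The difference for FBN2, fitted with no filter on low values, was −0.38 (limma adjusted p = 0.844). Both genes were low, ELN at 0.439 to 1.60 TPM and FBN2 at 0.267 to 1.04 TPM over the libraries, and neither difference passed.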

How the results depend on the processing

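Under 20 alternatives, 8 of which left out 1 library each, the number of members past the threshold ranged over the libraries left out from 1 to 2 in Smad3(RA/KP) cells and from 1 to 2 in wild-type Smad3 cells. THBS1 was the member lost, without the first stimulated Smad3(RA/KP) library (1.11, limma adjusted p = 0.0538) and without the second stimulated wild-type Smad3 library (1.20, limma adjusted p = 0.0772). No alternative gave a member past the threshold in the remaining comparisons (20 each between the lines within a treatment, 19 for the difference of the responses, for which a fit of only the groups compared gives no value). FN1 passed in wild-type Smad3 cells at a mean TPM of at least 5 (limma adjusted p = 0.0369), with median-ratio scaling (0.0304), quantile normalization (0.0325) and the GC trend removed (0.0183), making the count 3. Without the replicate block, TGFBI (limma adjusted p = 0.00209 and 0.00106) and THBS1 (0.0114 and 0.00811) still passed in Smad3(RA/KP) and wild-type Smad3 cells, FN1 in wild-type Smad3 cells had an adjusted p of 0.470, and 214 of all genes rose and 55 fell in Smad3(RA/KP) cells (458 and 197 with the block), while 198 rose and 79 fell in wild-type Smad3 cells (387 and 228 with it). Over all alternatives, calls over all genes ranged from 163 to 2622 in Smad3(RA/KP) cells (655 as reported), from 106 to 1215 in wild-type Smad3 cells (615), from 0 to 8 for the difference (3), from 0 to 87 between the stimulated lines (1) and from 1 to 7 between the unstimulated lines (2). Values that turned sign were all of comparisons that did not pass. With the GC trend removed these were the differences of responses of HAS2 (0.036) and THBS1 (0.073), HAS2 between unstimulated lines (−0.036) and THBS1 between stimulated lines (0.0053). Leaving out 1 library, FBN1 ranged from −0.43 to 0.099 in Smad3(RA/KP) cells, −0.28 to 0.34 in wild-type Smad3 cells, −0.51 to 0.12 for their difference and −0.050 to 0.39 between stimulated lines. THBS1 ranged from −0.24 to 0.11 for the difference, −0.062 to 0.040 between unstimulated and −0.25 to 0.099 between stimulated lines. HAS2 ranged from −0.17 to 0.41 and TGFBI from −0.19 to 0.017 between unstimulated lines, FN1 from −0.56 to 0.11 between stimulated lines, and EFEMP1 from −0.47 to 0.015 in wild-type Smad3 cells. The cause of these changes was not tested.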
